A study of Mus musculus with 4 samples.

Results

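The miR-23, miR-27 and miR-24 clusters were followed through the RNA-induced silencing complex (RISC) of mouse brain. The members were the 7 miRNA names mmu-miR-23a-3p, mmu-miR-27a-3p and mmu-miR-24-2-5p of cluster a, mmu-miR-23b-3p, mmu-miR-27b-3p and mmu-miR-24-1-5p of cluster b, and mmu-miR-24-3p, which both clusters encode. They were taken as every row of the deposited table that carries one of these names, which gave 1420 of 85704 sequences and 7 of 1029 miRNA names. The table holds RISC-bound short RNAs (R-sRNAs) that were pulled down with a GW182 peptide, which binds all Ago proteins, from the combined cortex and hippocampus of male C57BL/6J (BL6) mice. Of the 4 libraries, 2 came from mice aged 2 months and 2 from mice aged 18 months, and the comparison implied by the design is old against young. No transgene or drug is named for any of them, the tissue was used whole, and the replicates of an age are numbered without naming animals, so that a p-value measures the spread between these libraries, which may be technical.

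Each cluster gives rise to 3 miRNAs from a single primary transcript, which Drosha and Dicer cut into hairpins and then into short duplexes. In each duplex, one arm is loaded into Ago as the guide and the other arm is mostly discarded, and the guide pairs with mRNAs through its seed, the bases from position 2 to position 7 or 8. The clusters are known from endothelial cells, muscle and immune cells as well as brain. The miR-27 family is known to repress Pparg, the nuclear receptor that drives adipocyte formation, miR-23 is known to repress glutaminase, which makes glutamate, and miR-24 is known to repress the DNA repair histone H2AX.

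The mature sequences are shown first, since the whole distinction between cluster a and cluster b rests on a few of their bases. Positions are RefSeq coordinates on GRCm38.p6, all on the plus strand, with bases 2 to 8 (the seed) in capitals. A mature RefSeq entry was matched for 6 of the 7 names, and for miR-23b-3p the leading deposited read is shown, with T in place of U.
mmu-miR-23a-3p (Mir23a, chr8:84208563-84208583): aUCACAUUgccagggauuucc
mmu-miR-23b-3p (leading read): aTCACATTgccagggattacc
mmu-miR-27a-3p (Mir27a, chr8:84208727-84208747): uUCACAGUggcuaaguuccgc
mmu-miR-27b-3p (Mir27b, chr13:63300760-63300780): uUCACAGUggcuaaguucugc
mmu-miR-24-2-5p (Mir24-2, chr8:84208839-84208860): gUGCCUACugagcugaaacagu
mmu-miR-24-1-5p (Mir24-1, chr13:63301213-63301235): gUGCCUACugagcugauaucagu
mmu-miR-24-3p (Mir24-2, chr8:84208875-84208896, and Mir24-1, chr13:63301251-63301272): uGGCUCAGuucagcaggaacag

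The names therefore held 4 seeds, one for each of the miR-23, miR-27 and miR-24 3p arms and one for both miR-24 5p arms. The seeds of miR-23 and miR-27 share their first 5 bases. Counted from the 5′ end of the leading reads, miR-23a-3p and miR-23b-3p differed over 21 bases at T19A alone, and miR-27a-3p and miR-27b-3p at C19T alone. The miR-24 5p arms differed over 22 bases at A17T, C19T, A20C, G21A and T22G. For miR-24-3p no base tells the hairpins apart, so its reads could not be divided between the clusters. The hairpins of miR-24 show this, with the annotated arms in capitals.
Mir24-2 (chr8:84208815-84208921): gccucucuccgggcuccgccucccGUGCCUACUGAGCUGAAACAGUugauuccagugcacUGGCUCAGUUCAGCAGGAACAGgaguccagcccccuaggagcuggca
Mir24-1 (chr13:63301208-63301275): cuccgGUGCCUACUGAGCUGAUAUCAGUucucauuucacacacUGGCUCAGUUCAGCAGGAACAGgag

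Cluster a spans 404 bases of chromosome 8 (chr8:84208518-84208921) and cluster b spans 792 bases of chromosome 13 (chr13:63300484-63301275). In the GENCODE annotation of GRCm38, cluster b lies within the protein-coding gene 2010111I01Rik on the same strand and within Fancc on the opposite strand. Mir27b and Mir24-1 overlap an annotated exon of 2010111I01Rik and Mir23b does not. Cluster a lies in no protein-coding gene, and its last bases overlap the start of the lincRNA Gm26532. Each miR-24 hairpin overlaps a hairpin on the other strand, Mir3074-2 in cluster a and Mir3074-1 in cluster b.

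Between 9067007 and 11388999 reads stood behind the scaling of a library to CPM, normalised read counts that summed to between 999499 and 999589 in each library, so 3 reads came to between 0.263 and 0.331 CPM. The 3 neuronal markers (miR-124-3p, miR-128-3p and miR-9-5p) summed to between 169186 and 195706 CPM. Of the endothelial miR-126a, the 3p arm came to 9242 and 8854 CPM in the young libraries and to 2557 and 6489 CPM in the old ones, and was called lower by limma at an unadjusted p under 0.05, with a log2 difference of -1.15 and an adjusted p of 0.27. The 5p arm came to 3000.3 and 2618 CPM in the young and 2865 and 2501 CPM in the old libraries, a log2 difference of -0.07. None of the other 13 markers, of neurons, endothelium, smooth muscle, oligodendrocytes, immune cells and red blood cells, was called. In bulk tissue, fewer cells of a type and less RNA per cell cannot be told apart. The median of all tested miRNAs differed by -0.22 (log2, old minus young) in CPM, and by -0.01 after rescaling by the median of ratios.

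Together the 7 names took between 4.14% and 4.64% of all reads. The most abundant was miR-24-3p, with 14587 and 13624 CPM in the young libraries (2 months, replicates 1 and 2) and 15190 and 12690 CPM in the old ones (18 months, replicates 1 and 2), which gave it rank 17 among all miRNA names by mean level. It is the one guide to which both clusters contribute. Next came miR-23b-3p, with 12386 and 10163 CPM in the young and 11728 and 10060.4 CPM in the old libraries. All 4 of its values lay below the lowest value of miR-24-3p.

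The other 3p arms followed. For miR-27b-3p the levels were 7787 and 6941 CPM in young and 5458 and 8109 CPM in old mice. For miR-23a-3p they were 5716 and 5547 CPM in young and 5870.03 and 4803 CPM in old mice. For miR-27a-3p they were 5436 and 4449.7 CPM in young and 4062 and 5957 CPM in old mice. The ranges of these 3 names overlapped. Within a library, miR-27b-3p exceeded miR-27a-3p each time, whereas miR-23a-3p lay above miR-27a-3p in 3 libraries and below it in the other. The 18-month library with the least miR-27b-3p, replicate 1, also held the least miR-27a-3p and the most miR-23a-3p.

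The miR-24 5p arms were far lower and did not overlap each other. The levels of miR-24-2-5p were 313 and 417 CPM in young and 274 and 309.8 CPM in old mice. Those of miR-24-1-5p were 197 and 254 CPM in young and 175 and 209 CPM in old mice. Replicate 2 of the 2-month mice was the highest library for both, and replicate 1 of the 18-month mice the lowest.

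**Figure D1:**
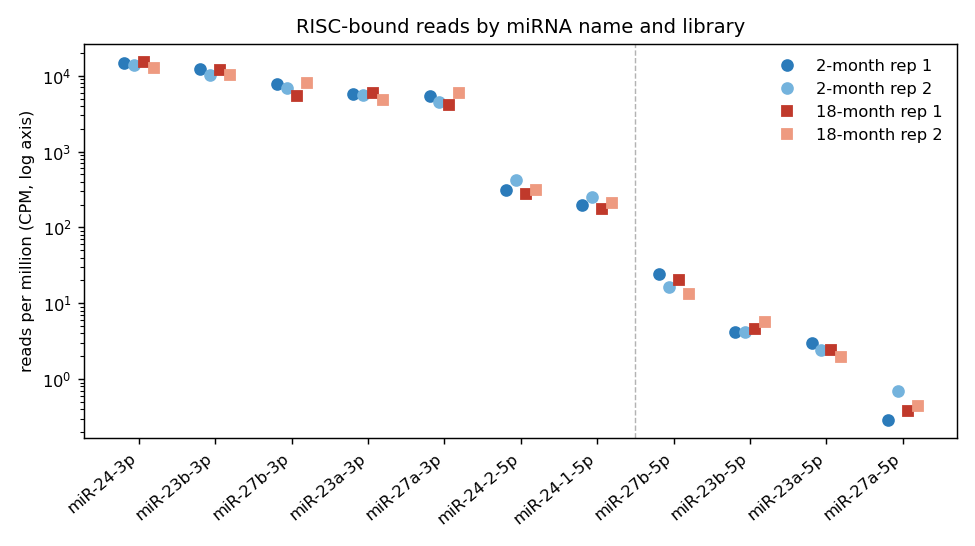
Level (CPM, log axis) of the 7 names and, right of the dashed line, of the other arms of the miR-23 and miR-27 hairpins, with 1 point per library. The 3p arms sit between 4062 and 15190 CPM, the miR-24 5p arms between 175 and 417 CPM, and the remaining 5p arms at or below 24.1 CPM.

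The b names of miR-23 and miR-27 were more abundant than the a names, whereas for the 5p arm of miR-24 the name of cluster a was ahead. The level of miR-23b-3p was 2.02 times that of miR-23a-3p (geometric mean of 4 libraries), with 2.17 and 1.83 times in the young and 1.998 and 2.09 times in the old libraries. The level of miR-27b-3p was 1.42 times that of miR-27a-3p, with 1.43 and 1.56 times in the young and 1.34 and 1.36 times in the old libraries. The level of miR-24-2-5p was 1.57 times that of miR-24-1-5p, with 1.59 and 1.64 times in the young and 1.57 and 1.48 times in the old libraries. Every library showed each of these directions (4 of 4), and the two-sided exact sign-flip test over the libraries gave p = 0.125 for each of the 3 pairs, also after Benjamini-Hochberg adjustment, which is the smallest p that 4 libraries allow.

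The names depend on the base at position 19 for miR-23 and miR-27, and few reads end before it. Reads in which that base could not be read were too short or differed from the leading read before it. They made up between 0.755% and 1.03% of miR-23 reads and between 0.389% and 0.549% of miR-27 reads. For position 17 of the miR-24 5p reads the share was at most 0.168%. A read under 19 nt with the usual start lacks base 19, so its name does not rest on that base. Most short reads of a pair carried a single name, that of cluster a for miR-23 and that of cluster b for miR-27. Those under 19 nt made up 2.39% of miR-23a-3p and 0.045% of miR-23b-3p, and 0.72% of miR-27b-3p and 0.037% of miR-27a-3p (means of 4 libraries). When reads were assigned by these bases instead of by name, the log2 ratio of a to b was -1.05 ± 0.11 (SD, n = 4) for miR-23, -0.49 ± 0.10 for miR-27 and 0.65 ± 0.06 for the miR-24 5p arms, against -1.01 ± 0.11, -0.51 ± 0.10 and 0.65 ± 0.06 by name. Since the names already rest on these bases, this likeness was largely set in advance and does not check the naming. The gap between the miR-24 5p arms grew when only part of their reads was counted. It was 1.20 ± 0.07 with the usual seed alone and 1.67 ± 0.12 with the leading read alone.

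**Figure D2:**
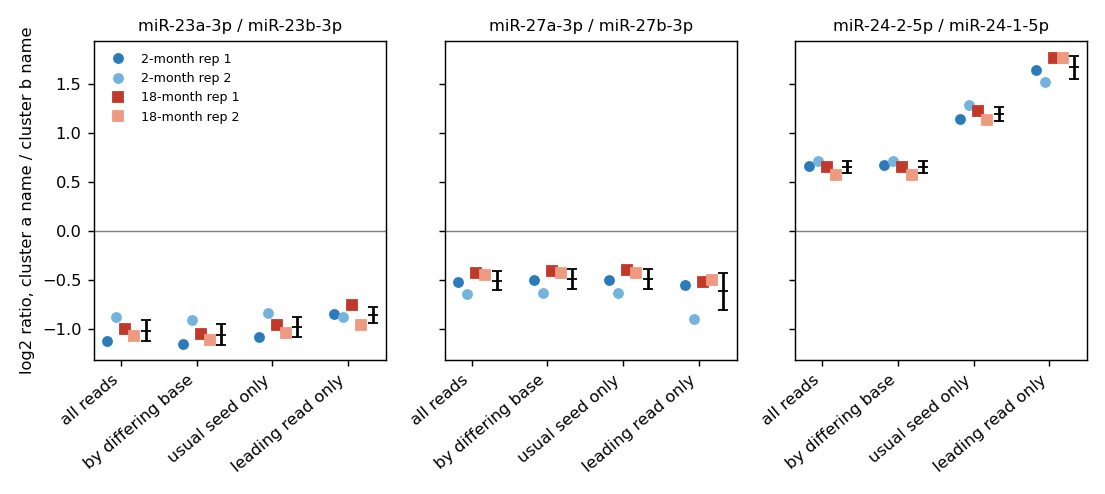
Log2 ratio of the cluster a name to the cluster b name in each library, for miR-23, miR-27 and the 5p arms of miR-24, with all reads and under 3 other ways of counting (black: mean and SD of 4 libraries). The miR-23 and miR-27 ratios lie below 0 and the miR-24 5p ratio above 0 in every library, and the latter rises from 0.65 to 1.67 when the leading read alone is counted.

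Between ages these ratios moved little. The log2 ratio of miR-27a-3p to miR-27b-3p was -0.58 ± 0.09 (SD, n = 2) at 2 months and -0.44 ± 0.01 at 18 months, a difference of 0.14 with groups that did not overlap and an exact permutation p of 0.33, the smallest that 2 against 2 libraries allow. For the 5p arms of miR-24 the difference was -0.08, with 0.69 ± 0.03 at 2 months and 0.61 ± 0.06 at 18 months, and the exact permutation p was also 0.33, and again the groups did not overlap. The ratio of miR-23a-3p to miR-23b-3p differed by -0.04, less than its spread of 0.17 (SD) between the 2-month libraries. A lack of overlap is common with 2 libraries per age, and the levels of 53.5% of the tested miRNAs showed it.

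The choice of arm separated miR-24 from the others. The 3p arm of miR-24 exceeded the sum of both 5p arms by 4.72 ± 0.32 (log2, SD, n = 4). The corresponding value was 8.60 ± 0.51 for miR-27b, 11.13 ± 0.15 for miR-23a and 11.23 ± 0.31 for miR-23b. The 5p arm of miR-27b was the best detected of the discarded arms of miR-23 and miR-27, at 24.1 and 16.3 CPM in young and 20.05 and 13.2 CPM in old mice. The 5p arm of miR-23b lay between 4.13 and 5.63 CPM and that of miR-23a between 1.99 and 2.96 CPM. The 5p arm of miR-27a lay between 0.286 and 0.703 CPM, which is 3 to 8 reads per library, and no ratio is given for it. The hairpins opposite miR-24 gave miR-3074-5p at 1.62 to 2.54 CPM and miR-3074-1-3p at 0.088 to 1.99 CPM.

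None of the 7 members passed the test between ages (limma on log2(CPM + 1), unadjusted p under 0.05), against 16.2% of the 456 miRNAs tested. No member passed after adjustment either, and 1 of the 456 did. edgeR and DESeq2 also called none of the 7. The change nearest the threshold was that of miR-24-2-5p, which was lower by 0.31 ± 0.23 (log2, SE) at 18 months, with a limma adjusted p of 0.50. The value was -0.51 without replicate 1 of the 2-month mice, -0.10 without their replicate 2, and -0.10 after rescaling by the median of ratios. miR-24-2-5p was the 1 member whose ages did not overlap, and 53.5% of the tested miRNAs did not overlap either. The difference was -0.23 ± 0.24 for miR-24-1-5p, -0.14 ± 0.26 for miR-27b-3p and -0.08 ± 0.21 for miR-23a-3p. It was -0.05 ± 0.22 for miR-23b-3p, -0.02 ± 0.21 for miR-24-3p and 0.00 ± 0.26 for miR-27a-3p.

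The median difference of the members was -0.08, beside -0.22 over all tested miRNAs. The general shift depends on the scaling, and so does the sign of a small difference. Under edgeR, DESeq2 or the median of ratios, the differences of miR-23a-3p, miR-23b-3p, miR-27b-3p and miR-24-3p turned positive and lay between 0.07 and 0.21, that of miR-27a-3p lay between 0.21 and 0.24, and those of miR-24-2-5p and miR-24-1-5p stayed negative at -0.11 to -0.02. Over all tested miRNAs, 74 were called in CPM, 19 higher and 55 lower, against 62 with edgeR, 39 higher and 23 lower. DESeq2 called 69, 43 higher and 26 lower. The other arm that was tested, miR-27b-5p, was lower by 0.27 ± 0.34 in CPM.

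The names did not vary together by cluster across the 4 libraries. Instead, miR-27a-3p and miR-27b-3p, from chromosomes 8 and 13, were alike, and so were miR-23a-3p, miR-23b-3p and miR-24-3p. Between the libraries of 18-month-old mice, replicate 2 exceeded replicate 1 by 0.55 (log2) for miR-27a-3p and by 0.57 for miR-27b-3p. For miR-23a-3p, miR-23b-3p and miR-24-3p the same difference was -0.29, -0.22 and -0.26. The 5p arms of miR-24 gave 0.17 and 0.26.

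Expressed as the Euclidean distance between log2(CPM + 1) values centred over the 4 libraries, miR-23a-3p lay at 0.0769 from miR-24-3p and at 0.182 from miR-23b-3p, but at 0.626 from miR-27a-3p, its neighbour on chromosome 8. In cluster b, miR-23b-3p lay at 0.137 from miR-24-3p and at 0.575 from miR-27b-3p. The distance between miR-27a-3p and miR-27b-3p was 0.169 and that between the 5p arms of miR-24 was 0.105. From the 5p arms of its own hairpins, miR-24-3p lay at 0.554 (miR-24-2-5p) and 0.534 (miR-24-1-5p), so it did not follow its own family. The log2 ratio of miR-27 to miR-23 was unsteady within an age. In cluster a it was -0.07 and -0.32 in the young and -0.53 and 0.31 in the old libraries. In cluster b it was -0.67 and -0.55 in the young and -1.10 and -0.31 in the old ones. Within each cluster both 18-month values enclosed the 2-month values. Counted on the leading reads alone, the mean ratio turned positive in both clusters, from -0.15 to 0.33 in cluster a and from -0.66 to 0.08 in cluster b. The library with the lowest ratio, replicate 1 of the 18-month mice, also had the lowest marker sums of endothelium (5422 CPM), oligodendrocytes (4119 CPM), immune cells (423 CPM) and red blood cells (1698 CPM), and the highest neuronal sum, but not the lowest of smooth muscle (5033 CPM, against 4915 CPM in the other old library). Single markers of these lists were not all lowest there, and the oligodendrocyte miR-219a-2-3p was at its highest, at 887 CPM. The neuronal sum of 195706 CPM lay close to the 195044 CPM of replicate 2 of the 2-month mice. Of the neuronal markers, only miR-128-3p was highest there. miR-124-3p was highest in replicate 2 of the 2-month mice (107034 CPM, against 98221.5 CPM). miR-9-5p was highest in replicate 2 of the 18-month mice (43876 CPM, against 27655 CPM). The part of these cell types in the ratio was not tested.

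**Figure D3:**
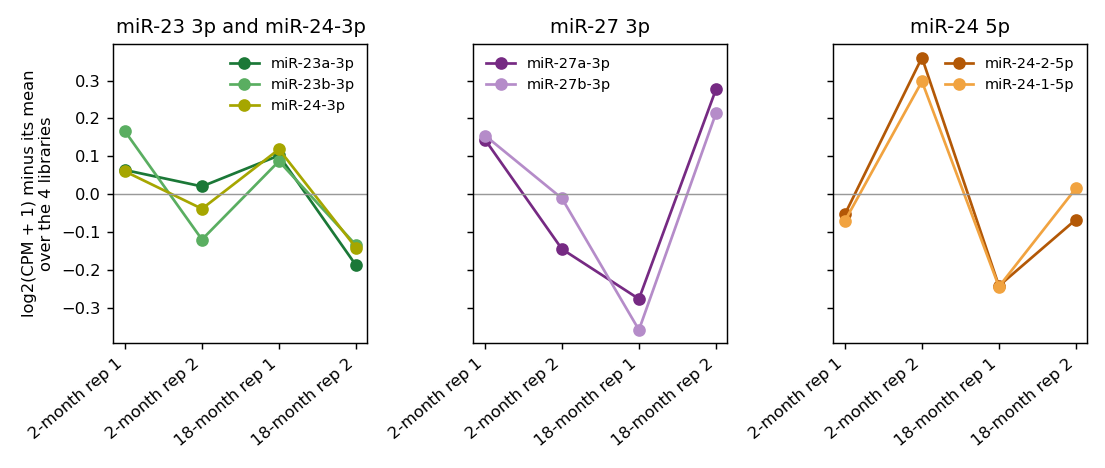
Level of each name as log2(CPM + 1) minus its own mean over the 4 libraries, drawn as a line through the libraries, with names of like pattern in the same panel (the lines join libraries and stand for no order). In the 18-month mice the miR-23 names and miR-24-3p are lower in replicate 2 than in replicate 1, with differences of -0.29 to -0.22, while both miR-27 names are higher there, by 0.55 and 0.57.

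By the same distance, among 449 tested miRNAs other than the members, the patterns most like the summed miR-23a-3p and miR-27a-3p were those of miR-106b-3p at 0.103, miR-383-3p at 0.117 and miR-374c-3p at 0.121. For the summed miR-23b-3p and miR-27b-3p they were miR-139-5p at 0.0619, miR-344d-3p at 0.0686 and miR-324-5p at 0.0837. The closest to miR-24-3p were miR-16-5p at 0.0613, miR-344c-3p at 0.0867 and miR-30a-3p at 0.0905. These likenesses rest on 4 libraries and are descriptions.

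A read that starts 1 base off presents another seed, and this was rare in all names except miR-24-1-5p. The share of reads whose 6mer seed (positions 2 to 7) differed from that of the leading read was 2.93% ± 0.17 (SD, n = 4) for miR-23a-3p, 5.29% ± 0.24 for miR-23b-3p, 1.67% ± 0.35 for miR-27a-3p, 2.99% ± 0.60 for miR-27b-3p, 4.07% ± 0.46 for miR-24-3p and 3.24% ± 0.48 for miR-24-2-5p. For miR-24-1-5p it was 30.9% and 34.9% in young and 34.9% and 34.5% in old mice. Its partner arm from cluster a is identical before position 17 and lay far lower in every library, between 2.85% and 3.93%. The leading read of miR-24-1-5p and the most frequent shifted read of each arm show where the start moved, with bases 2 to 8 in capitals.
miR-24-1-5p, leading read: gTGCCTACtgagctgatatcagt
miR-24-1-5p, leading shifted read: tGCCTACTgagctgatatcagt
miR-24-2-5p, leading shifted read: tGCCTACTgagctgaaacagt

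The reads that began 1 base later, with the 6mer seed GCCUAC, made up 17.3% and 21.3% of miR-24-1-5p in young and 19.7% and 22.4% in old mice. Those that began 1 base earlier, with the seed GUGCCU, made up 12.8% and 13.2% in young and 15.1% and 11.9% in old mice. The Wilson 95% interval of such a share was at most 1.88 percentage points on either side and covers counting error only. In miR-24-2-5p the same 2 starts held 2.53% and 0.320% on average. In miR-23b-3p the start 1 base later, with the seed CACAUU, held 4.26%, beside 0.701% in miR-23a-3p. For miR-24-3p the shifted share was 3.62% and 3.73% in young and 4.39% and 4.54% in old mice, so the ages did not overlap. For miR-24-2-5p they did not overlap in the opposite direction, with 3.93% and 3.18% in young and 2.999% and 2.85% in old mice. The exact permutation p was 0.33 for both, and the ages did not overlap in 34.4% of 456 miRNAs.

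Each 6mer seed carries a viability score in the deposited table, the percent viability of cells (mean of 3 mouse lines) after transfection with a duplex of that seed, where a low score marks a toxic seed. The usual seed of miR-24-3p, GGCUCA, scored 31.8 and was the most toxic among the members. The seed of miR-27 (UCACAG) scored 59.0, that of miR-23 (UCACAU) 65.5 and that of the miR-24 5p arms (UGCCUA) 70.2. A shifted start thus replaced GGCUCA by GCUCAG with a score of 77.3 in 2.18% of miR-24-3p reads. It replaced UGCCUA by GCCUAC, with a score of 39.1, in 20.2% of miR-24-1-5p reads.

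Weighted by reads, the score of all 7 members was 53.7 and 53.3 in young and 52.9 and 53.9 in old mice, so the ages overlapped. Over miR-24-3p alone it was 33.26 and 33.32 in young and 33.58 and 33.68 in old mice, a difference of 0.34 points without overlap (exact permutation p = 0.33). The score of a name is set by the shares of its seeds, so this restates the shifted share given above. That share did not overlap between ages in 34.4% of 456 miRNAs. Over miR-24-1-5p the score was 62.6 and 61.2 in young and 61.5 and 61.2 in old mice. The members supplied 98.3% of all CPM with the seed GGCUCA, 98.8% of those with UCACAU and 97.3% of those with UCACAG. A miR-27 read that starts 1 base later has the seed CACAGU, which is that of miR-128-3p, an abundant miRNA of neurons. Such reads came to 85.4 CPM on average and made up 0.154% of the 55424 CPM with that seed, of which miR-128-3p supplied 54541 CPM.

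The members differed in read length. Reads of 21 nt predominated in miR-27a-3p (53.8% to 65.5%) and miR-27b-3p (60.1% to 67.3%). In miR-23a-3p, reads of 21 nt (38.2% to 43.3%) and 22 nt (27.7% to 32.5%) were followed by 20 nt, whereas miR-23b-3p also held 9.57% to 14.1% of reads of 24 nt, against 0.438% to 0.731% in miR-23a-3p. The reads of miR-24-3p had 2 peaks, one at 20 nt (20.6% to 25.99%) and one at 22 nt (27.7% to 35.02%) and 23 nt (30.9% to 33.9%), with 8.15% to 9.21% at 21 nt between them.

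**Figure D4:**
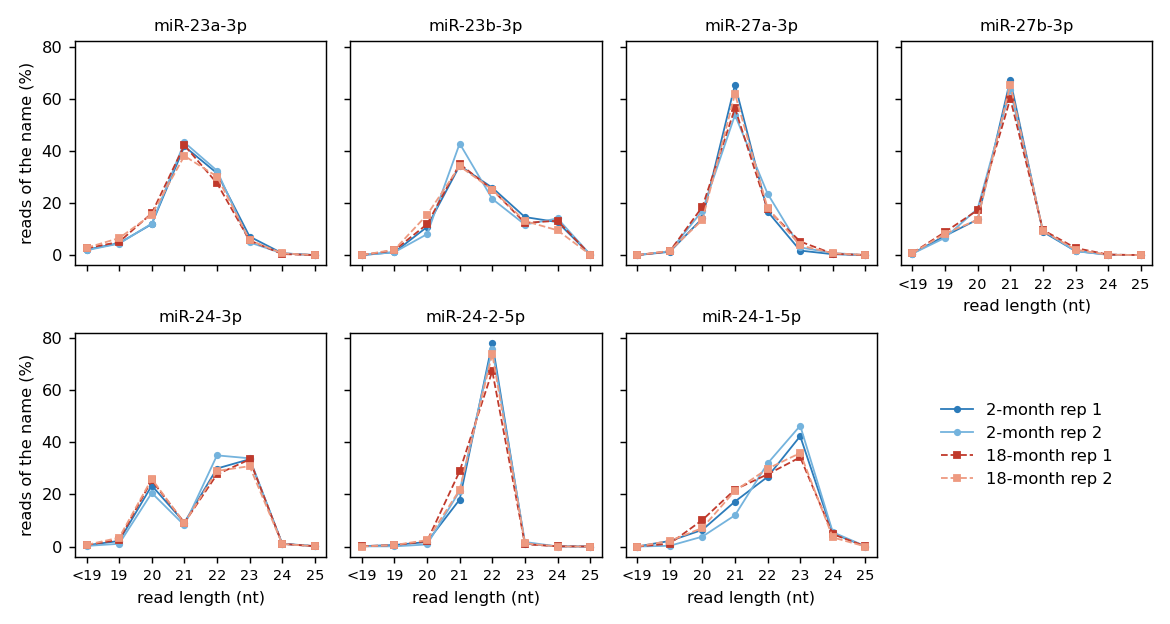
Share of the reads of each name (%) by read length (nt), with 1 line per library. The miR-27 names peak at 21 nt, miR-24-2-5p at 22 nt and miR-24-1-5p at 23 nt, miR-24-3p has peaks at 20 nt and at 22 to 23 nt, and miR-23b-3p has a shoulder at 24 nt that miR-23a-3p lacks.

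Many of the longer reads ended in bases that the hairpin does not encode. Such an untemplated 3′ end was taken as a tail of 1 to 3 bases after at least 15 bases of the hairpin, and a base that happens to equal the template cannot be seen. In miR-24-3p it was found in 41.9% and 40.8% of reads in young and 43.1% and 40.8% in old mice. In miR-27a-3p it was found in 23.3% and 32.8% of reads in young and 29.2% and 27.2% in old mice, and in miR-23b-3p in 18.2% and 19.9%, then 20.1% and 15.9%. The ages of these 3 overlapped. In miR-27b-3p it was found in 10.8% and 13.26% of reads in young and 13.8% and 13.32% in old mice, and in miR-23a-3p in 7.21% and 6.19%, then 8.24% and 8.31%. Both were higher in both old libraries (exact permutation p = 0.33 each), 2 of 7 members, and the ages did not overlap in either direction in 36.9% of 301 miRNAs. Counted on tails of 1 base only, the ages of miR-27b-3p overlapped, with 9.53% and 12.01% in young and 12.11% and 11.65% in old mice. Those of miR-23a-3p still did not. With any tail, the values were 1.23% ± 0.22 (SD, n = 4) for miR-24-1-5p and 0.957% ± 0.072 for miR-24-2-5p. Over 301 miRNAs that could be scored, the median was 10.97%, with quartiles at 5.47% and 17.0%. Counted from the highest, miR-24-3p had rank 15 and miR-27a-3p rank 34, while both 5p arms of miR-24 were among the lowest 10, at ranks 292 and 295. Each miR-24 5p arm is followed by a U in its hairpin, so that an added T could not be counted there.

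In the 3p arms most of these tails consisted of T, the letter in which U is read. Tails of T alone were on 33.04% ± 1.34 of miR-24-3p reads, 19.2% ± 4.002 of miR-27a-3p reads, 15.9% ± 2.03 of miR-23b-3p reads, 8.36% ± 1.25 of miR-27b-3p reads and 4.30% ± 0.28 of miR-23a-3p reads. The most abundant single sequence of miR-24-3p was such a read, and a read of 24 nt of miR-23b-3p and one of 22 nt of miR-27a-3p were each in the third place of their name. They are shown with the untemplated base in capitals.
miR-24-3p, leading read: tggctcagttcagcaggaacagT
miR-23b-3p, read of 24 nt: atcacattgccagggattaccacT
miR-27a-3p, read of 22 nt: ttcacagtggctaagttccgcT

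The tailed read of miR-24-3p came to 4261 and 3858 CPM in young and 4504 and 3347 CPM in old mice, and took 28.5% of the name. The untailed read that equals the RefSeq entry came to 3772 and 4166 CPM in young and 3494 and 3089 CPM in old mice. Neither exceeded the other in all libraries. The tailed read of miR-23b-3p came to 1411 and 1294 CPM and then 1390.4 and 858 CPM, 11.2% of the name, and that of miR-27a-3p to 671 and 878 CPM and then 495 and 795 CPM, 14.3% of the name.

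**Figure D5:**
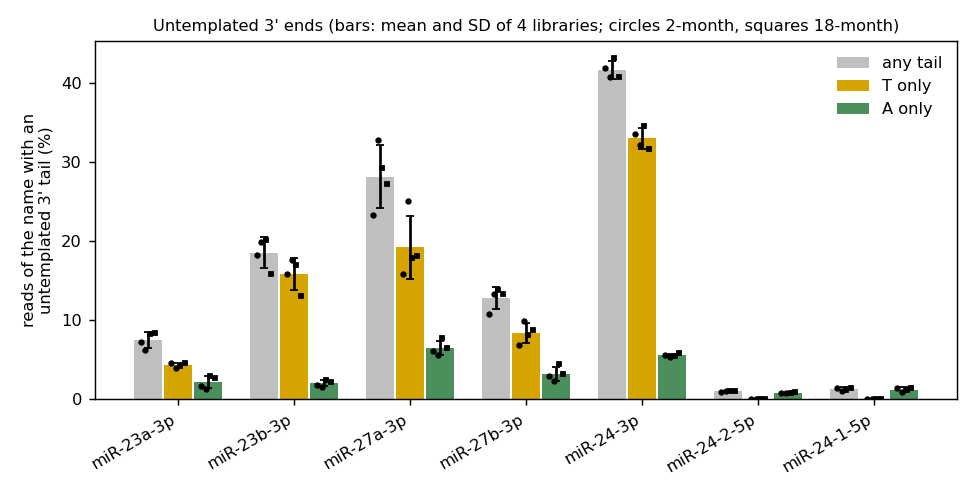
Share of the reads of each name (%) with any untemplated 3′ tail, with a tail of T alone and with a tail of A alone (bars: mean and SD of 4 libraries, points: libraries). The tails of miR-24-3p reach 41.7% of reads on average and are mostly T, and those of the miR-24 5p arms at 0.957% and 1.23%.

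Between ages, the mean read length was lower in both 18-month than in both 2-month libraries for 5 of the 7 members, namely all but the miR-27 names, against 34.4% of 456 miRNAs. None of the 7 was higher in both. For miR-23a-3p it was 21.21 and 21.18 nt in young and 21.06 and 21.07 nt in old mice, a difference of -0.13 nt. The differences were -0.12 nt for miR-23b-3p, -0.15 nt for miR-24-3p, -0.09 nt for miR-24-2-5p and -0.27 nt for miR-24-1-5p. The exact permutation p was 0.33 for each of the 5, and the median difference of all 456 was -0.03 nt.

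Tails of A alone were more frequent in both 18-month libraries for 4 of the 7 members, all of them miR-23 and miR-27 names, against 28.2% of 301 miRNAs. In miR-23a-3p they were on 1.68% and 1.31% of reads in young and on 2.85% and 2.67% in old mice. In miR-27b-3p they were on 2.96% and 2.27% of reads in young and on 4.38% and 3.22% in old mice. The exact permutation p was 0.33 for both. This count was chosen after the values had been seen.

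Of the 1420 member sequences, 419 had a mean of at least 1 CPM and were tested between ages, and 23 passed (limma, unadjusted p), which is 5.49% against 10.1% of all 14287 sequences. None passed after adjustment, where 6 of all sequences did. Of the 23, 21 were higher at 18 months and 2 lower, beside 838 higher and 605 lower of the 1443 called among all sequences. The filter takes the mean of all 4 libraries, so a sequence that is low at either age can pass through the other age alone. Some called sequences did so, such as a miR-24-3p read at 0.572 and 0.176 CPM in young and 2.08 and 2.54 CPM in old mice. Such calls therefore rest in part on the filter. With no filter, 42 member sequences passed (2.96%, against 3.88% of all), 31 higher and 11 lower. With a filter at 10 CPM, 9 passed (7.69%, against 13.5% of all), all of them higher. Among the 23, all 7 sequences of miR-24-3p were shorter than its leading read and higher. All 5 of miR-27a-3p were reads of 23 nt, longer than its leading read and higher. The leading read of miR-24-3p is itself a tailed read of 23 nt, so a read of the RefSeq length of 22 nt counts as shorter. The shares of these lengths among the 114 and 55 tested sequences of the names are not given here. An untemplated tail was carried by 16 of the 23 (69.6%), all of them higher, and by 54.7% of the 419 tested. Reads shorter than the leading read made up 52.2% of the called and 35.8% of the tested sequences, and longer reads 43.5% and 41.1%. These shares were not tested. The count depended on single libraries, with 12 called without replicate 1 of the 18-month mice, 14 without replicate 2 of the 2-month mice and 39 without replicate 1 of the 2-month mice. Under the median of ratios it was 46, all higher, which is 10.98% of the members' sequences against 11.8% of all, where 1376 were higher and 308 lower.

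The most abundant of these sequences in miR-24-3p, miR-23b-3p and miR-27a-3p are shown, with untemplated bases in capitals.
miR-24-3p, 19 nt: tggctcagttcagcaggaa
miR-23b-3p, 19 nt: atcacattgccagggatta
miR-27a-3p, 23 nt: ttcacagtggctaagttccgcTT
miR-27a-3p, 23 nt: ttcacagtggctaagttccgcAT

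The read of miR-24-3p came to 272 and 123 CPM in young and 343 and 395 CPM in old mice, a log2 difference of 1.005 ± 0.38 (SE, limma adjusted p = 0.44). That of miR-23b-3p came to 109 and 86.8 CPM in young and 177 and 172 CPM in old mice, a difference of 0.84 ± 0.29 (limma adjusted p = 0.40). It ends on the base that tells miR-23b-3p from miR-23a-3p, so a shorter miR-23a-3p read with an added A would look the same. Of the miR-27a-3p reads, the one that ends in TT came to 19.9 and 40.7 CPM and then 65.8 and 66.4 CPM, a difference of 1.18 ± 0.37 (limma adjusted p = 0.37), and the one that ends in AT to 15.7 and 25.99 CPM and then 60.9 and 59.998 CPM, a difference of 1.53 ± 0.34 (limma adjusted p = 0.23). The ages did not overlap in any of these 4 reads, which were shown because they passed the test, so this adds nothing to the calls. The ages of the leading read of miR-27a-3p, at 3281 and 2123 CPM and then 2017 and 3386 CPM, overlapped.

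Single-base differences inside the reads were rare except in the 5p arms of miR-24. Over the first 18 bases, the substitution with the highest share was A12G in miR-23 at 0.193%, A4G in miR-27 at 0.410% and A15G in miR-24-3p at 0.243%, where the first letter is the usual base and positions count from the 5′ end of the leading read. In miR-24-2-5p it was A7G, at 4.72% and 2.16% of reads in young and 4.94% and 5.39% in old mice, and the next substitution of that arm held 0.201%. In miR-24-1-5p the same substitution held 1.36% on average, with 0.369% to 2.59% per library. It lies in the seed, which it turned from UGCCUA into UGCCUG, with a viability score of 55.8 in place of 70.2. The reads have no miRNA name in the table, and the leading one is shown with the altered base in capitals.
miR-24-2-5p, leading read with A7G: gtgcctGctgagctgaaacagt

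This read came to 10.5 and 5.80 CPM in young and 11.1 and 12.5 CPM in old mice. The ages did not overlap for the read or for the share of the substitution in miR-24-2-5p, which were not tested and were chosen after their values were seen. The levels of 53.5% of the tested miRNAs did not overlap either. The 2-month replicate 2 was the lowest library for both, and replicate 1, at 10.5 CPM and 4.72%, lay near the lower old library at 11.1 CPM and 4.94%.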

How the data were processed

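Per the labels and the study's methods, Ago-bound RNA was gel-sized, made into small RNA libraries and sequenced on an Illumina instrument. The authors trimmed the reads (Trim Galore, per the submitters' processing notes), dropped rare ones, assigned names by BLAST against murine small RNA lists and scaled each library. The deposited values are CPM per sequence, and the deposited viability score belongs to a 6mer seed. The genome build of that step is not given in the sources used here. All CPM values were whole multiples of 1 read (100%, within 0.01 reads), so counts were recovered.

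Sequences were summed by name. Names averaging 10 CPM or more and sequences averaging 1 CPM or more were tested by limma 3.58.1 (R 4.3.3, intensity trend, log2(CPM + 1), age as the only term, two-sided) and called at an unadjusted p under 0.05. Fold changes on this scale understate those of low sequences. edgeR 4.0.16 and DESeq2 1.42.0 were run on the recovered counts. Ratios and shares were compared by exact permutation. The fits were tested on simulated data. Named were the 7 members, their other arms, miR-3074, miR-128-3p, the 3 leading and the first shifted reads of a member and the 3 closest patterns, beside called and substituted reads chosen after their values were seen. The members and lists were chosen with earlier results of these data known. Replicates of an age differed beyond counting noise (chi-square per degree of freedom 676 and 479.6).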

Additional observations from a re-analysis of the deposited data

Results flagged for a closer look

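Reads that the table places on one of the 6 hairpins but gives no miRNA name entered none of the levels and tests above (the single-base differences drew on unnamed reads too), and all 6 hairpins had them above the level of 3 reads in every library, which brought them up as signal outside the main measurement. Their mean over the 4 libraries was 236 CPM for mir-24-2, 199 CPM for mir-23b, 165 CPM for mir-27b, 111 CPM for mir-23a, 65.6 CPM for mir-27a and 3.08 CPM for mir-24-1. For mir-23a they came to 1.99% of the reads of the hairpin and for mir-27a to 1.30%. For mir-24-2 they came to 1.62% and for mir-24-1 to 1.46%. Since no base of miR-24-3p tells the miR-24 hairpins apart, the CPM of mir-24-2 and mir-24-1 cannot be compared.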

How the results depend on the processing

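None of the 7 members was called under any of the 14 alternatives. The number of miRNAs called went from 74 to 125 with no filter, 43 with a filter at 100 CPM and 1 by adjusted p, and that of sequences from 1443 to 3327 with no filter, 424 with a filter at 10 CPM and 6 by adjusted p. With edgeR, DESeq2 and the median of ratios in turn, the log2 difference between ages turned to 0.15, 0.14 and 0.13 for miR-23a-3p, to 0.18, 0.17 and 0.17 for miR-23b-3p, to 0.10, 0.090 and 0.068 for miR-27b-3p and to 0.21, 0.20 and 0.19 for miR-24-3p. Those tools scale the libraries differently. Leaving out 1 library at a time gave -0.23 to 0.060 for miR-23a-3p, -0.28 to 0.28 for miR-27a-3p, -0.19 to 0.10 for miR-23b-3p, -0.43 to 0.14 for miR-27b-3p, -0.15 to 0.11 for miR-24-3p, -0.51 to -0.10 for miR-24-2-5p, -0.41 to -0.044 for miR-24-1-5p and -0.55 to 0.012 for miR-27b-5p. The ratio of a to b moved with the leading read alone to -0.86 for miR-23, -0.62 for miR-27 and 1.67 for the miR-24 5p arms, and with the usual seed alone to 1.20 for the latter. The ratio of miR-27 to miR-23, an alternative chosen after seeing the data, moved with the leading read alone to 0.33 in cluster a and reversed to 0.084 in cluster b. The cause of these moves was not tested.

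The replicate numbers do not pair mice of different ages, and the deviations of same-numbered libraries correlated at 0.18 over 456 miRNAs. With a replicate block, 79 miRNAs and 0 members were called, and 27 member sequences in place of 23. With 2 libraries per age, the exact tests could not pass the threshold.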
